A study of Gossypium hirsutum with 51 samples.

Results

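In wild-type upland cotton (Gossypium hirsutum) ovules, 61 cDNA clones of the 11682 on the array formed a set whose transcripts were higher 3 days after flowering than 3 days before it, and lower again by 15 and 20 days. The 61 were selected on their measured values. A member had a log2 ratio of at least 0.8 for wild type at +3 over -3, of -0.8 or less for +15 and for +20 over +3, and a log2 ratio of wild type over fl at +10 that was either missing or lay between -1.2 and 1.5. A total of 9987 clones had a value in all 3 age comparisons. Of these, 89 met the age conditions, and 28 of the 89 lay outside the limits at +10 and are no members.

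Ovule RNA was compared by hybridising 2 samples to each array, one labelled with Cy5 and the other with Cy3. Ages are days post anthesis, with the day of flowering as 0. Wild-type ovules of -3, 0, +5, +10, +15 and +20 were each set against wild-type ovules of +3, and wild type was set against ovules of the fl mutant of the same age at +3 and at +10. Each of these 8 comparisons was run in 3 sets, a set being 1 array plus the same pair with exchanged dyes, and 3 further arrays held +3 wild type in both channels. The labels give no cultivar, allele or growth condition beyond wild type and fl, and the RNA came from whole ovules, so the fibre cells on their surface and the tissues beneath them were measured together. In such bulk samples, fewer cells of a type and less RNA per cell cannot be told apart. The clones carry no gene names in the files used here, so neither the tissue nor the function of a member could be checked against known markers, and members are given by clone name.

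Cotton fibres are single cells of the ovule's outer layer. They start to bulge from the surface around the day of flowering, then elongate for some weeks, and afterwards lay down thick cellulose walls while the embryo grows inside the ovule. Genes used at the start of elongation and genes used during wall thickening therefore peak at different ovule ages, and fuzzless or lintless mutants are used to separate fibre transcripts from those of the rest of the ovule.

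The arrays of a set were averaged and the set taken as 1 replicate, because the design text describes the samples as biologically independent. One forward array had identical control values under +5 set 3 and +10 set 2 (19 of 19), so both sets were left out and the comparisons of +5 and +10 with +3 rest on 2 sets. The direction of the ratios is likely rather than stated, and follows from a control spot whose sign separated forward arrays from dye swaps. This spot read -11.7 to -7.16 in 23 forward arrays and 5.83 to 12.11 in 23 dye swaps. Arrays of wild type against fl at +3 were among them, and the spot was not reversed there. At +3, the clone values of wild type against fl carried a dye effect opposite to the other arrays. The correlation of their dye effect with the self-to-self arrays ran from -0.57 to -0.40 in the 3 sets, against -0.06 to 0.69 in the 21 sets of the other comparisons. Their sign was turned for this reason, so the turn rests on the dye effect of the clones and not on the control spot. An array measured between 7639 and 11681 clones, and 43 of the 61 members had a value in all 22 sets.

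The values that chose the members are given first, as a description. Relative to +3, members were lower at -3 by a median log2 ratio of -1.02 (range -3.16 to -0.81), at +15 by -1.29 (range -5.58 to -0.80) and at +20 by -1.34 (range -5.66 to -0.82), while the medians of all clones were 0.01, -0.05 and -0.02. At -3, 3 members had a ratio of -2 or less, a 4-fold difference, and 16 did so at +15 and again 16 at +20. The rise from -3 to +3 was smaller than the fall from +3 to +15 in 51 of the 61. From +15 to +20 the levels moved little, with a median difference of 0.02 and a range from -0.45 in CM082B10 to 1.61 in CM091A12.

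The deepest member was CM099E09. Its set values relative to +3 were -3.00, -2.95 and -3.44 at -3, then -0.73, -0.41 and -0.58 at 0, -3.13 and -2.32 at +5, -2.93 and -3.04 at +10, -5.92, -5.17 and -5.64 at +15, and -5.44, -5.48 and -6.07 at +20. All sets at every age were below +3, those at 0 were nearest to it, and at +20 the transcript was 50.7-fold lower than at +3. CM110C12 had the widest rise, with -3.30, -3.17 and -3.02 at -3, and it was still low at 0, with -2.10, -1.70 and -2.12. It returned to low levels late, at -3.41, -3.34 and -3.23 at +15 and -3.39, -3.57 and -3.93 at +20. These clones therefore differ in when they rose: most of the rise of CM099E09 lay before 0, and most of that of CM110C12 after it.

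Other members with wide margins were shallower. CM097A09 stood at -2.28, -1.87 and -2.79 at -3 and at -2.43, -2.93 and -2.77 at +15. CM075E11 stood at -1.74, -1.55 and -1.99 at -3 and at -3.31, -2.91 and -3.10 at +15. In both, no set at these ages came within 1.5 log2 units of +3. CM123D08 was less certain, because its 3 sets at +15 were -2.49, -2.88 and -5.24, an SD of 1.49 that was the largest among members in that comparison, where the median SD was 0.20.

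**Figure D1:**
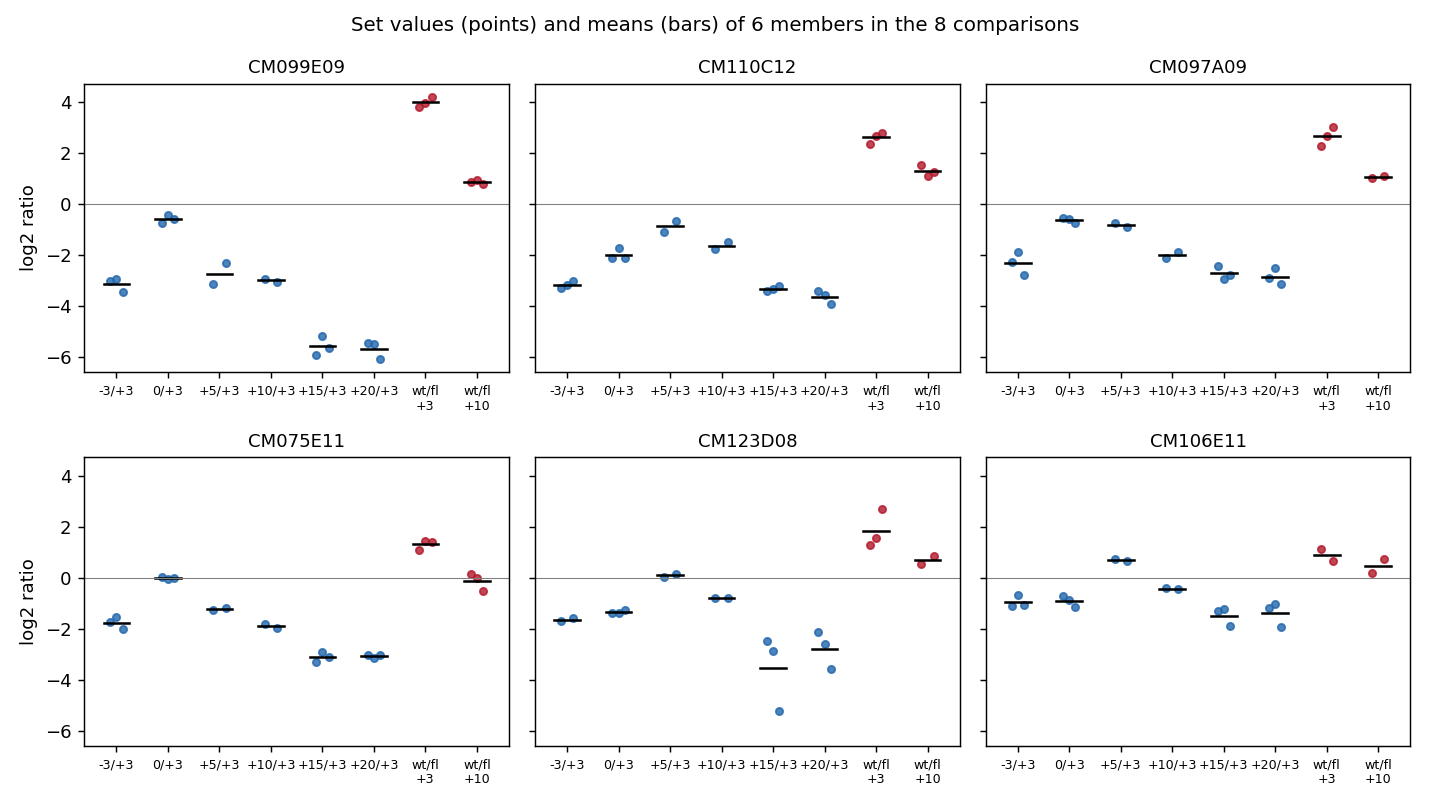
Log2 ratios of 6 members in the 8 comparisons, each point a set and each black bar the mean of its 2 or 3 sets; blue points are wild-type ages over +3 and red points are wild type over fl, with the sign at +3 turned. CM099E09 falls to -5.66 at +20, whereas CM106E11 lies above 0 at +5 (0.70) and below it at every other age.

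Close to the thresholds the values were continuous. Just inside lay CM097F03 (1.5 for wild type over fl at +10), CM059D01 (-0.80 at +15) and CM081H08 (-0.81 at -3). Just outside lay CM094E08, CM099B08 and CM011B07, at -0.798, -0.795 and -0.793 for -3 against +3. The 28 clones kept out by the limits at +10 had a median wild type over fl ratio of 2.18 at +10 and fell further than members, with medians of -2.10 at +15 and -2.03 at +20. At 0 all 28 were below +3, with a median of -0.64. At +5 their median was 0.16, with 18 above +3 and 10 below, against a median of -0.44 in members. At +10 it was -0.43, with 11 above and 17 below, against -0.78 in members. The course at +5 and +10 thus differed between members and the clones kept out by the limits.

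The comparisons that the selection did not use were tested next, with limma over all probes and Benjamini-Hochberg adjustment within each comparison. A call was an adjusted p under 0.05. These comparisons share +3 wild type with those that chose the members, so a low value of a member relative to +3 is not independent of the choice. At 0, 27 of 61 members were lower than at +3 (44.3%) and 2 were higher (3.28%), while 32 were not called. Of all 11675 probes tested, 14.2% were lower and 14.4% higher. The median of members was -0.29 (range -1.97 to 0.46), and 3 members were at least 2-fold lower. The count of calls was sensitive to the sets: it was 13 without set 1 and 19 without set 2, against 29 with all, whereas scaling the arrays gave 50 and fitting these arrays alone gave 47.

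The members that were furthest from +3 at 0 were CM110C12 (log2 difference -1.97, SE 0.12, adjusted p = 1.51e-10, limma) and CM045F12. In CM045F12 the sets at 0 were -1.41, -1.32 and -1.44 and those at -3 were -1.40, -1.43 and -1.71, so its sets at flowering overlapped those of 3 days before. CM123D08 was likewise low at 0, with -1.38, -1.37 and -1.24, a difference of -1.33 (SE 0.36, adjusted p = 0.00875). CM118E08 (-0.98) and CM106E11 (-0.91) also fell short of +3. In these 5 clones the larger step of the rise lay between 0 and +3.

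Of the members called in the other direction at 0, CM052C01 read 0.57, 0.38 and 0.45 (mean 0.46, adjusted p = 1.74e-04, limma) and CM094C11 read 0.34, 0.23 and 0.25 (mean 0.27, adjusted p = 0.02). All their sets were above +3 at 0 and below it at -3, where CM052C01 read -0.72, -0.97 and -0.80. CM075E11 was level with +3 at 0, at 0.02, -0.04 and 0.00. Thus the members had reached different fractions of their +3 level on the day of flowering.

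At +5, 32 of 60 tested members were lower than at +3 (53.3%, all probes 29.2%), 5 were higher (8.33%, all probes 26.8%) and 23 were not called. The median was -0.44, with a range from -2.72 to 0.70, and 7 members were at least 2-fold lower. At +10, 45 of 60 were lower (75%, all probes 30.2%), none was higher by limma (0 at an unadjusted p under 0.05, all probes 28.8%) and 15 were not called. The median there was -0.78, with a range from -2.98 to 0.27, and 20 members were at least 2-fold lower. All probes had medians of -0.03 at +5 and -0.02 at +10. Without set 1, the calls at +5 numbered 20 instead of 37, with +5 then resting on a single set that was assumed to vary like the other groups.

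**Figure D2:**
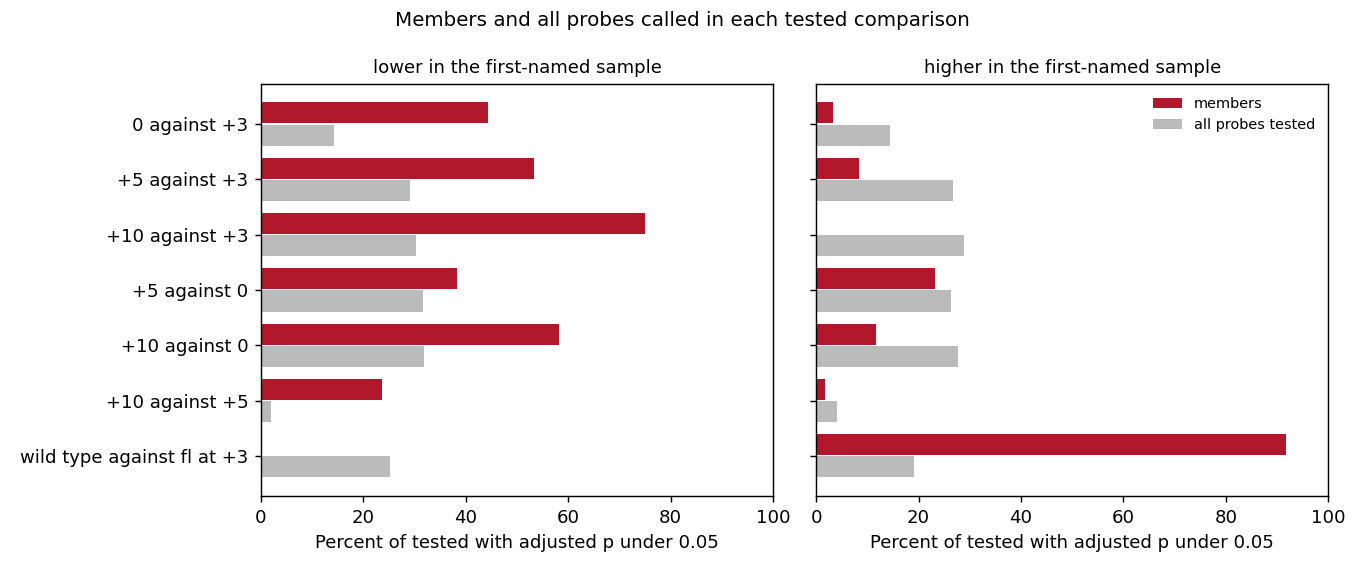
Percent of tested members (red) and of all tested probes (grey) with an adjusted p under 0.05, lower (left) and higher (right) in the first-named sample of each comparison. The bars of members are longer than those of all probes for lower at +10 against +3 (75% and 30.2%), for lower at +10 against +5 (23.7% and 2.00%) and, with the sign turned, for higher in wild type at +3 (91.7% and 19.1%), where the deposited sign would make the same 55 members lower.

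The largest falls by +5 were in CM099E09 (-2.72, SE 0.19, adjusted p = 1.51e-09, limma) and CM027G01. CM027G01 read -2.06 and -1.98 at +5 and -2.11 and -2.25 at +10, 4.06-fold and 4.54-fold below +3. Its values at +15 were -2.64, -1.92 and -2.84, so most of its fall had taken place within 2 days of +3. CM075E11 read -1.24 and -1.18 at +5 (adjusted p = 4.77e-07) and -1.82 and -1.97 at +10 (adjusted p = 1.72e-09), which left a further step to its +15 level. CM048C05 (-1.11) and CM006H01 (-1.10) were the next lowest at +5.

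Among the 5 members that were higher at +5 than at +3, CM106E11 read 0.73 and 0.66 (mean 0.70, SE 0.20, adjusted p = 0.00585, limma) and CM103A03 read 0.44 and 0.67 (mean 0.56, adjusted p = 0.00253). The others were CM004H02 (0.44), CM122F07 (0.41) and CM090G05 (0.36). The number of members called higher at +5 depended on the processing. It was 3 with exact zeros kept, 4 with +5 set 3 and +10 set 2 kept, 4 with these arrays fitted alone and 6 with each plate centred on its median. At +10, CM106E11 had gone to -0.39 and -0.45 and CM103A03 to -0.31 and -0.74, below +3 in every set. For these clones the highest measured age was +5. Over the 59 members with a value at every age, 38 had their highest mean at +3, 10 at +5, 8 at 0 and 3 at +10. The lowest mean was that of +15 for 26 members, of +20 for 25, of -3 for 6 and of +10 for 2. A peak at +3 was favoured by the way the members were chosen, and a mean above +3 was not always called.

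**Figure D3:**
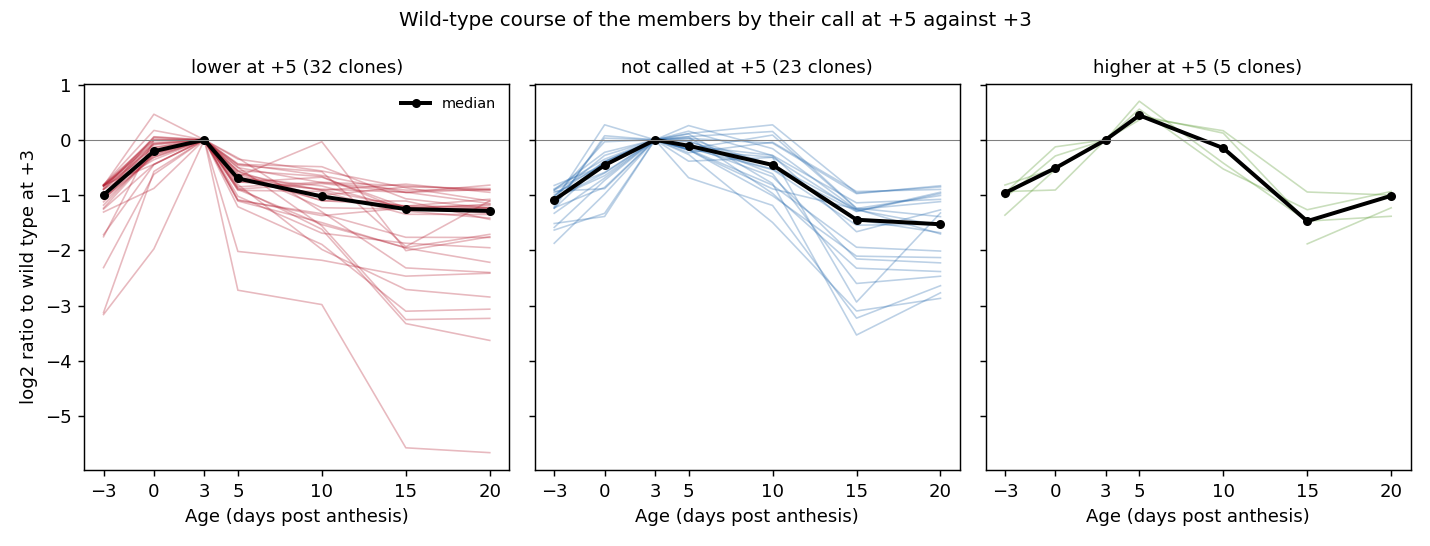
Wild-type course of 60 members by their call at +5 against +3, as log2 ratio to +3 (set to 0) against age in days post anthesis; thin lines are clones and the black line is the median. The 32 members called lower at +5 have medians of -0.70 at +5 and -1.03 at +10, the 23 not called -0.11 and -0.46, and the 5 called higher 0.44 and -0.15 (4 with a value at +10).

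Differences between +5, +10 and 0 were taken within the same fit, where +3 cancels in the differences. The differences use none of the arrays that chose the members. Even so, the upper limit on wild type over fl at +10 involves +10 wild type. Low values at +10 against 0 and against +5 are therefore not independent of the choice. The spread of a clone is pooled over all 8 comparisons, so the arrays that chose the members also enter the errors and p-values. CM123D08 shows this, with an SE of 0.57 for +5 against 0, although its sets at these ages had SDs of 0.08 and 0.09 and those at +15 an SD of 1.49. Members were lower at +10 than at 0 in 35 of 60 (58.3%, all probes 31.8%) and higher in 7 (11.7%, all probes 27.8%), with a median of -0.58 (range -2.41 to 1.47) against -0.06 over all probes. With arrays scaled to a common spread, this split became 26 lower and 17 higher. For +5 against 0, 23 members were lower (38.3%, all probes 31.7%) and 14 were higher (23.3%, all probes 26.4%), which is close to the shares over all probes. Scaling turned that split to 16 lower and 27 higher, so no direction is given for the members at +5 against 0.

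The lower calls at +10 against 0 were led by CM099E09 (-2.41, SE 0.24, adjusted p = 5.55e-08, limma), CM027G01 (-1.93, adjusted p = 3.10e-07) and CM075E11 (-1.89, adjusted p = 2.03e-08). CM011F04 and CM111D08 were both at -1.43. CM011F04 was level with +3 at 0, where its sets were 0.09, 0.19 and -0.12, and read -1.48 and -1.27 at +10. These clones were high at flowering and at +3 and had left that level by +10.

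The opposite course was seen in CM045F12, CM006D06 and CM056G03, which were higher at +10 than at 0 by 1.47 (SE 0.20, adjusted p = 3.06e-06, limma), 1.16 (adjusted p = 4.81e-04) and 1.01 (adjusted p = 1.95e-05). CM006D06 read -0.92, -0.77 and -0.96 at 0, 0.00 and 0.23 at +5, 0.23 and 0.32 at +10 and -0.87, -0.95 and -1.07 at +15. Its sets at +10 lay above all sets at 0 and at +15. CM056G03 held its +3 level at +10 as well, with 0.33 and -0.03, before it read -1.47, -1.11 and -1.13 at +15. These clones stayed near their +3 level up to +10 and fell between +10 and +15.

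From +5 to +10, 14 of 59 members were lower (23.7%, all probes 2.00%), 1 was higher (1.69%, all probes 4.10%) and 44 were not called. An unadjusted p under 0.05 was found in 25 of the 59, the called members included. The median difference was -0.32 (range -1.23 to 0.63), against -0.02 over all probes. CM110C03 went from -0.30 and -0.24 at +5 to -1.52 and -1.47 at +10, a difference of -1.23 (SE 0.25, adjusted p = 0.00589, limma). CM097A09 went from -0.73 and -0.89 to -2.09 and -1.88, a difference of -1.18 (SE 0.26, adjusted p = 0.0106). In neither clone did the sets of these ages overlap. With 2 sets at each age, leaving out set 1 or set 2 left no call by limma (19 and 21 members at an unadjusted p under 0.05), and fitting only these arrays left 7.

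Further falls within this interval were those of CM106E11 (-1.12), CM103A03 (-1.08), CM096E12 (-1.06) and CM115H08 (-1.02, adjusted p = 0.00324, limma). CM115H08 read 0.11 and -0.01 at +5, then -0.97 and -0.98 at +10, and -2.16, -2.03 and -2.79 at +15, a stepwise decline that began after +5. The single member called higher at +10 than at +5 was CM043D05, which read -0.84 and -0.50 at +5 and -0.04 and -0.03 at +10 (difference 0.63, adjusted p = 0.0412).

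In ovules of +3, 55 of 60 tested members had more transcript in wild type than in fl (91.7%, all probes 19.1%), none was lower by limma (0 at an unadjusted p under 0.05, all probes 25.2%) and 5 were not called. These counts hold for the turned sign. With the sign as deposited, the same 55 were lower in wild type, so the direction rests on the dye reading. The median was 0.79 (range 0.10 to 4.003) against -0.07 over all probes, the mean was above 0 in 60 of 60, and 22 members differed at least 2-fold. The +3 wild type of these arrays is the age that the selection required to be high, and their RNA may be shared with the arrays that chose the members.

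CM099E09 had the widest genotype difference at +3, with sets of 3.82, 3.97 and 4.22, a 16.0-fold higher level in wild type (SE 0.15, adjusted p = 7.62e-14, limma). At +10 its sets were 0.88, 0.97 and 0.79, a 1.84-fold difference, and none of them overlapped those at +3. CM097A09 read 2.28, 2.68 and 3.03 at +3 and 1.04 and 1.11 at +10. CM110C12 read 2.37, 2.70 and 2.81 at +3 and 1.54, 1.11 and 1.25 at +10. In size, the difference between genotypes was smaller at +10 in these clones under either sign at +3. Their means at +3 were above 1.5 in size, and the selection kept the ratio at +10 below 1.5. The smaller size at +10 was therefore fixed by the choice of members, and nothing is read from it.

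The next widest were CM080H12, with 2.00, 1.87 and 2.77 (mean 2.21, adjusted p = 9.03e-07, limma), CM110C03, with 2.43, 1.87 and 2.26 (mean 2.19, adjusted p = 3.22e-10), and CM118E08, with 1.93, 1.89 and 2.50 (mean 2.11, adjusted p = 6.95e-12). The sets of CM080H12 were spread at +15 (-2.84, -2.40 and -4.45), as were those of CM123D08. Members without a call were CM052C01, CM081H08, CM094C11, CM100C12 and CM122F07, with means from 0.10 to 0.27. CM103A03 had a single set, at 1.57, and was not tested.

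At +10, where the limits of the selection apply, the genotype difference is a description. The median over 58 members was 0.44 (range -0.52 to 1.5), with 40 above 0 and 18 below, and the median of all clones was -0.14. With the turned sign, the ratio was larger at +3 than at +10 in 46 of the 58, with a median difference of 0.46 log2 units. With the deposited sign it was larger at +3 in 2 of the 58, with a median difference of -1.31. The limits at +10 kept out 28 clones with a median ratio of 2.18 there, so these counts depend on the choice of members. CM094C11 had the smaller ratio at +3 under either sign, with turned values of 0.24, 0.13 and 0.20 at +3 and 1.42, 1.395 and 1.53 at +10. Combining the comparisons through +3 gives a derived course of fl, which includes the limited ratio at +10 and so is shaped by the selection as well. From +3 to +10 the derived level of fl moved by a median of -0.30 and was lower at +10 in 36 of 57 members. In wild type the figures were -0.79 and 52 of the same 57, and no contrast between the genotypes is read from them. With the deposited sign at +3 the figures for fl would be -1.99 and 56 of 57.

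The ratio of wild type over fl at +10 was among the values that chose the members and was limited by that choice, so its relation to other ages is given as values only, and nothing about the members is read from it. For the 22 members with a value at +10 that were not called at +5, it had a median of 1.06 (range 0.24 to 1.5). For the 31 that were lower at +5, it had a median of -0.08 (range -0.52 to 1.30), with 14 above 0 and 17 below. The log2 ratio at +5 against +3 and that of wild type over fl at +10, which name no sample in common, had a Pearson correlation of 0.35 and a rank correlation (Spearman) of 0.51 over 57 members, and r was 0.495 over the 56 without CM099E09. Over 8719 clones of the array, on which no limit was set, the same r was 0.51 and rho 0.50. Clones share arrays and are not independent.

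**Figure D4:**
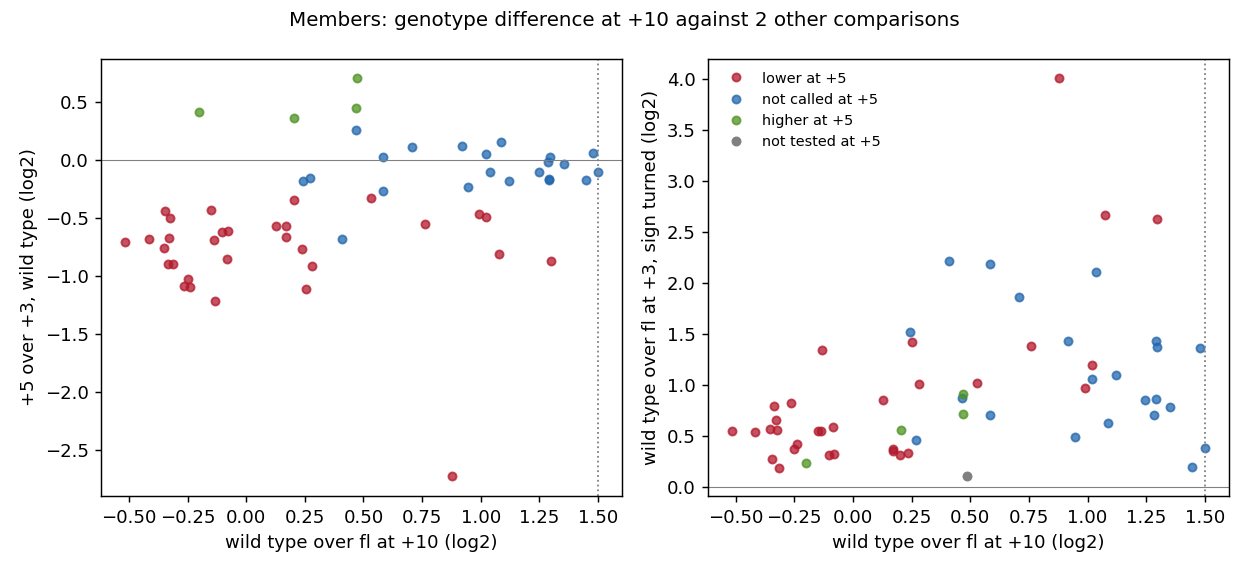
Each point is a member; the horizontal axis is its log2 ratio of wild type over fl at +10, with the upper limit of the selection dotted, and the vertical axis is its log2 ratio of +5 over +3 (left) or of wild type over fl at +3 with the sign turned (right). The 22 members not called at +5 all lie right of 0, while the 31 called lower at +5 lie on both sides (14 and 17), and all points on the right panel are above 0 with the turned sign and would all be below it with the deposited one.

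For the ratio of 0 against +3 and that of wild type over fl at +10, the same description gave r of -0.45 and rho of -0.45 over 58 members, and r of -0.68 and rho of -0.56 over 9190 clones. The genotype ratios at +3, with the sign turned, and at +10 had r of 0.40 and rho of 0.47 over 58 members, against 0.66 and 0.45 over 8822 clones. With the deposited sign at +3 these values become -0.40 and -0.47 over members and -0.66 and -0.45 over clones.

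Agreement between sets differed by comparison. Members with a single sign in all their sets numbered 51 of 61 at 0, 50 of 60 at +5, 56 of 60 at +10, 57 of 60 for wild type against fl at +3 and 51 of 58 at +10. The median SD between sets was 0.07 at 0, 0.15 at +5, 0.11 at +10, 0.20 for wild type against fl at +3 and 0.13 at +10, against 0.09, 0.13, 0.11, 0.16 and 0.13 over all clones. In the 3 age comparisons that chose the members, the median SD was 0.24 at -3, 0.20 at +15 and 0.17 at +20. Over all clones it was 0.23, 0.14 and 0.13. The largest SD of a member at -3 was 0.68, and the sets of CM081H08 there were -0.73, -0.35 and -1.34. On the self-to-self arrays, which measure the same RNA in both channels, the members' means after subtraction of the array medians had a median of -0.03 and ran from -0.60 to 0.32. None of the 61 means came to 0.8 in size. In single self-to-self arrays, without that subtraction, members reached -1.12 (CM111D08) and -1.0 (CM103A03). The members lay on 49 of the 124 clone plates that the clone names number, with at most 2 on a plate.

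The course most like the members' median course over the 8 comparisons, among clones outside the set, was that of CM112G12 (Pearson r 0.990), followed by CM095E07 (0.984) and CM061A05 (0.983). Members themselves had r from 0.745 to 0.990, with a median of 0.94 over the 56 measured in all 8. CM112G12 read -2.57, -2.38 and -2.96 at -3 and -3.33, -3.21 and -3.08 at +15, deeper than most members, but its ratio of wild type over fl at +10, with 1.68, 1.67 and 1.55, lay above the limit. CM095E07 and CM061A05 had the same course at a smaller size, with means of -0.71 and -0.71 at +15.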

How the data were processed

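Per the labels, total RNA of wild-type and fl ovules was hybridised to 2-colour cDNA arrays. The authors deposited 1 table of log2 ratios for 51 arrays, with 11682 clones. Which arrays the authors had normalized was inferred from the number format of the clone values. By this reading 41 arrays were normalized (array medians -0.15 to 0.11), how is not given in the sources used here. The other 10 arrays, including those of -3 against +3, were not (medians -0.52 to 0.47). Spot brightness was not used here, so dim spots could not be removed, and precision depends on the few arrays per comparison. Exact zeros were treated as missing. Means over sets needed at least 2 sets.

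The 8 comparisons were fitted in 1 group-means model on set means with limma 3.58.1 in R 4.3.3 (lmFit and eBayes), after a run on simulated data with known changes. p-values were adjusted over all probes within a comparison. Tables were handled with pandas 2.3.3. The members, tests and clones to name were chosen with earlier results of these data known. The rule for named clones took the 12 members with the widest margin over the thresholds, the 5 largest called rises and falls with one sign in every set per tested comparison, the 3 clones nearest a threshold on each side, up to 5 members called against the majority, and the 3 clones outside the set with the most similar course. CM081H08 and CM100C12 as members without a call at +3, CM082B10 at the end of a range and members at a rank outside this rule were named after their values were seen. Whether set numbers pair samples is not stated. Deviations of same-numbered sets had a median correlation of -0.002 over 70 pairs, against -0.009 over 141 pairs of different numbers. The correlation was over 0.1 in 13 of the 70 and in 15 of the 141, so these values do not settle whether some sets were paired. Alternatives covered centring, scaling, plate centring, exact zeros, the shared array, the fit, the set block, thresholds and leaving out each set.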

Additional observations from a re-analysis of the deposited data

How the results depend on the processing

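The number of members was 106 with a threshold of 0.7 and 38 with 0.9, and 43 to 72 without one of the sets. Membership itself changed: of the 61, 40 to 45 stayed without one of the sets. With arrays centred 46 of them stayed, with arrays centred and scaled 42, and with plates centred 40. All 61 stayed with exact zeros kept, and 50 with 3 sets required. Calls at 0 against +3 went from 29 to 50 with arrays centred and scaled, to 47 with the compared arrays fitted alone and to between 13 and 29 without one set. Without one set, calls ran from 20 to 39 at +5 against +3, from 19 to 38 at +5 against 0 and from 0 to 11 at +10 against +5, which gave 7 with its arrays alone. In these fits a comparison left with 1 set was assumed to vary like the others. Scaling turned +5 against 0 to 43 calls, mostly higher, with a median of 0.17, which was 0.007 after plate centring, and gave CM097A09 0.44 and CM118D02 0.025. At +10 against 0 it gave CM110C03 0.054 and CM118D02 0.072. The cause was not tested. The deposited sign at +3 made all 55 calls of wild type against fl lower, by construction, with a median of -0.79 and CM027G01 at -1.24, CM044C03 -1.38, CM048C05 -1.42, CM075E11 -1.34, CM080H12 -2.21, CM091A12 -1.41, CM097A09 -2.66, CM099E09 -4.003, CM110C03 -2.19, CM110C12 -2.63, CM115H08 -1.06, CM118D02 -1.002 and CM123D08 -1.86. With the set number as a replicate block, calls were 25, 38, 44, 36, 44, 10 and 53 in the order 0, +5 and +10 against +3, +5 and +10 against 0, +10 against +5 and wild type against fl, where the numbers mark no known pairing. The count of calls in other settings stayed within 1.5 times. With 2 or 3 sets and no brightness, small differences of dim spots cannot be judged.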
